A study of Homo sapiens with 20 samples.

Results

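The genes described are 8 ligands that attract lymphocytes and monocytes, taken by symbol from the 58233 gene identifiers that were counted in lung cancer cells with and without *ADAR* knockout (KO). All 8 were found: *CXCL9*, *CXCL10*, *CXCL11*, *CXCL16*, *CCL2*, *CCL5*, *CCL20* and *CX3CL1*. Chemokines are secreted proteins that guide leukocytes through G-protein-coupled receptors on the leukocyte surface. CXCL9, CXCL10 and CXCL11 share the receptor CXCR3 of activated T cells and are classic targets of interferon. CCL5 attracts T cells and monocytes, CCL2 draws monocytes through CCR2, and CCL20 draws CCR6-bearing lymphocytes and dendritic cells. CXCL16 and CX3CL1 are made as membrane-anchored proteins, are shed by ADAM10 and ADAM17, and bind CXCR6 and CX3CR1. Several of these promoters are known to take both interferon-activated factors and NF-κB.

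The RNA-seq covered 20 libraries in 10 conditions, with 2 libraries per condition. All cells carried Cas9 and an sgRNA, delivered by lentivirus, against *GFP* (a gene that human cells lack, the control) or against *ADAR*, which encodes the RNA-editing enzyme ADAR1. Whether the transduced cells were kept as pools or as clones is not given in the sources used here. A549, an adenocarcinoma line that is not ADAR1-dependent, was given vehicle (sterile water) or 10 ng/mL interferon-β (IFN-β) for 24 h with either target. The 3 ADAR1-dependent lines were not treated, and their RNA was taken 5 days after transduction: HCC366 (adenosquamous carcinoma), NCI-H1650 (adenocarcinoma) and NCI-H196 (variant small cell carcinoma). The 2 libraries of a condition carry different sgRNAs (sg1 and sg2), which served as replicates. No source used here says that they came from separate experiments, so the p-values measure only the spread between these libraries.

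Depth ran from 62679 to 19520189 reads on genes per library, with a median of 6411279. The lowest was NCI-H196 GFP sg2, where 1 read is worth 14.7 CPM (reads of a gene scaled to a common library size) and *CXCL10*, *CXCL16* and *CCL20* had no read there. In HCC366 ADAR sg2, 85.6% of alignments were not unique against at most 59.1% in any other library, and GC content and length accounted for 52.3% of the variance of its log2 deviations from the line's other libraries, against 1.09% to 36.5% in the others. *ADAR* RNA itself was lower with *ADAR* sgRNAs in vehicle-treated A549 (log2 fold change −1.08, standard error (SE) 0.13), IFN-β-treated A549 (−0.60, SE 0.13), NCI-H1650 (−1.29, SE 0.11) and NCI-H196 (−0.41, SE 0.11), all past an adjusted p of 0.05. In HCC366 the change was −0.84 (SE 0.31, adjusted p = 0.208). A frameshift need not lower the RNA, so these values do not measure loss of the protein. Epithelial markers (keratins, *EPCAM* and *CDH1*) summed to between 2635 and 9868 CPM in A549, HCC366 and NCI-H1650 and to between 52.3 and 83.9 CPM in NCI-H196. The T cell genes *CD3D* and *CD3E* and the myeloid genes *LYZ* and *FCGR3A* had no read in any library. In each library, 7 to 13 of 13 leukocyte markers were at 0.

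On GRCh37, *CXCL9* (ENSG00000138755, 76922428 to 76928662), *CXCL10* (ENSG00000169245, 76942271 to 76944650) and *CXCL11* (ENSG00000169248, 76954835 to 76962568) lie side by side on the minus strand of chromosome 4. *CCL2* (ENSG00000108691, 32582293 to 32584227, plus strand) and *CCL5* (ENSG00000271503, 34198495 to 34207797, minus strand) are on chromosome 17, as is *CXCL16* (ENSG00000161921, 4636828 to 4643223, minus strand). *CCL20* (ENSG00000115009) spans 228670455 to 228682280 on the plus strand of chromosome 2, and *CX3CL1* (ENSG00000006210) spans 57406389 to 57418956 on the plus strand of chromosome 16. Counts sum the reads over all annotated exons of a gene. The exons of *CXCL16* share 2.72% of their bases with *MED11* and 3.44% with *ZMYND15*, both on the other strand, and whether counting used the strand is not given in the sources used here, so reads in those stretches could come from either gene.

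RefSeq promoter windows, the 250 bases before the gene start on GRCh38.p14, were at hand for 4 of the 8 genes: *CXCL9*, *CXCL10*, *CXCL11* and *CCL20*. They are shown because they hold the CXCR3 ligands, which sit side by side but differed in level, and *CCL20*, which had the largest *ADAR* KO effect of the 4 chemokines tested in IFN-β-treated A549. Sequences run 5′ to 3′ on the gene's strand, and capitals mark matches on either strand to an ISRE-like motif (GAAA, any 2 bases, GAAA), a κB-like motif (GGGA, any 4 bases, CC) or a GAS-like motif (TTC, any 3 bases, GAA), which resemble the sites of interferon-activated factors, NF-κB and STAT dimers.
CXCL9, chr4:76007510-76007759: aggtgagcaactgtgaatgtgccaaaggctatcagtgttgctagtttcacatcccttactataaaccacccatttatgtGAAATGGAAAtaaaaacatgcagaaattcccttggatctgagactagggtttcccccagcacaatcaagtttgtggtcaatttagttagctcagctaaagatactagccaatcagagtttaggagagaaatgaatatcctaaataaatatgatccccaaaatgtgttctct
CXCL10, chr4:76023498-76023747: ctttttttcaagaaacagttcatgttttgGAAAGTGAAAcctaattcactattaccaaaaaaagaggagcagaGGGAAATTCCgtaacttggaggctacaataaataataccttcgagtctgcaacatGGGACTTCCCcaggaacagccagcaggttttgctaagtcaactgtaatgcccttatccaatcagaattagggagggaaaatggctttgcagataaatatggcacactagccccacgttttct
CXCL11, chr4:76036071-76036320: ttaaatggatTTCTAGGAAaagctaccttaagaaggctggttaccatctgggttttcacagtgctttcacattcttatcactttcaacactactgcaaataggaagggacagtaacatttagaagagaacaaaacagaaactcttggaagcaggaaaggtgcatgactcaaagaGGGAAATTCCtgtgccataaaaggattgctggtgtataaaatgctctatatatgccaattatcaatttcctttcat
CCL20, chr2:227813592-227813841: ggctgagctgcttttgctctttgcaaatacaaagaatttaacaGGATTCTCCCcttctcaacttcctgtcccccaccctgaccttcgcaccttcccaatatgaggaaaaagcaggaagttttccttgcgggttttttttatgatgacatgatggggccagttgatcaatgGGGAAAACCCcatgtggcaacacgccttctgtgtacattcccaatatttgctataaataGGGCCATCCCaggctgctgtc
*CXCL9* holds 1 ISRE-like match (positions −171 to −162 from the gene start). *CXCL10* holds 1 ISRE-like match (−221 to −212) and 2 κB-like matches (−177 to −168 and −122 to −113). *CXCL11* holds 1 κB-like match (−76 to −67) and 1 GAS-like match (−240 to −232). *CCL20* holds 3 κB-like matches (−207 to −198, −80 to −71 and −21 to −12). Of 35116 windows of the same length, 3.02% held the ISRE-like, 22.6% the κB-like and 6.57% the GAS-like motif. A match is a description of the letters, and whether a factor was bound was not tested.

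IFN-β alone, in control A549 cells, raised *CCL5*, *CCL2* and *CXCL16* and left *CCL20* without a passing change. *CCL5* had 1 and 2 reads after vehicle (0.132 and 0.133 CPM, scaled by the trimmed mean of M values (TMM) within the line) and 27 and 30 reads after IFN-β (2.53 and 1.86 CPM). Both treated libraries lay far above both vehicle libraries, and the log2 fold change was 3.93 (SE 0.66, adjusted p = 7.87e-05, edgeR quasi-likelihood). With so few vehicle reads the ratio is loosely set: pooled reads gave 16.1-fold, with an exact 95% interval from 5.23 to 80.2 that covers counting error only. In bulk RNA, more cells that express a gene and more of its RNA per cell cannot be told apart, here and in every comparison that follows.

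*CCL2*, the monocyte attractant, stood at 15.2 and 12.7 CPM after vehicle and at 35.5 and 30.7 CPM after IFN-β, a log2 fold change of 1.26 (SE 0.17, adjusted p = 3.22e-06). *CXCL16* stood at 11.5 and 10.9 CPM after vehicle and at 16.6 and 21.1 CPM after IFN-β, a log2 fold change of 0.76 (SE 0.20, adjusted p = 0.0142). For both genes the treated libraries lay above the vehicle libraries, but *CXCL16* lost its call without GFP sg1 vehicle (adjusted p = 0.0769), GFP sg2 vehicle (0.190) or GFP sg2 IFN-β (0.190). *CCL20* stood at 2.38 and 2.72 CPM after vehicle and at 1.03 and 1.80 CPM after IFN-β. Its treated libraries lay below the vehicle libraries, and the log2 fold change of −0.81 (SE 0.41, adjusted p = 0.351) did not pass.

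The CXCR3 ligands were barely detected. *CXCL10* had no read in either vehicle library and 4 and 19 reads after IFN-β, and *CXCL11* had no read after vehicle and 2 and 10 reads after IFN-β. Against 3 reads over the vehicle group, these are at least 5.87-fold and at least 3.05-fold higher. Neither reached the read minimum for the test. In a fit with no minimum both passed (adjusted p = 0.000905 and 0.0380), while DESeq2 gave an adjusted p of 0.0778 for *CXCL10* and none for *CXCL11*. *CXCL9* had no read in any of the 8 A549 libraries, and *CX3CL1* had at most 3 reads in any of them.

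In all, 3 of the 4 genes tested were higher with IFN-β and none was lower, where 5.7% of all 15449 genes tested passed, 4.39% higher and 1.31% lower. The median log2 fold change of the 4 was 1.01, against 0.00 over all genes tested. A single condition can meet the read minimum, as the IFN-β conditions did for *CCL5* with its 0 to 2 reads after vehicle, so the counts and medians over genes tested, here and in the later comparisons, are descriptions only. Of the STAT and IRF factors, 6 of 9 rose, led by *IRF7* (log2 fold change 4.89), *STAT2* (3.51) and *IRF9* (2.98). NF-κB subunits and early targets rose in 4 of 9 cases, led by *TNFAIP3* (0.90), *NFKB2* (0.78) and *NFKBIA* (0.62). Of the 4 proteases that process these chemokines, *DPP4* (2.41), which trims and inactivates CXCR3 ligands, and *CTSS* (2.26), a lysosomal cathepsin, rose. None of the 5 other chemokine ligands tested passed (1 of 5 at an unadjusted p under 0.05), and no receptor of the 8 ligands had enough reads to be tested in A549.

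**Figure D1:**
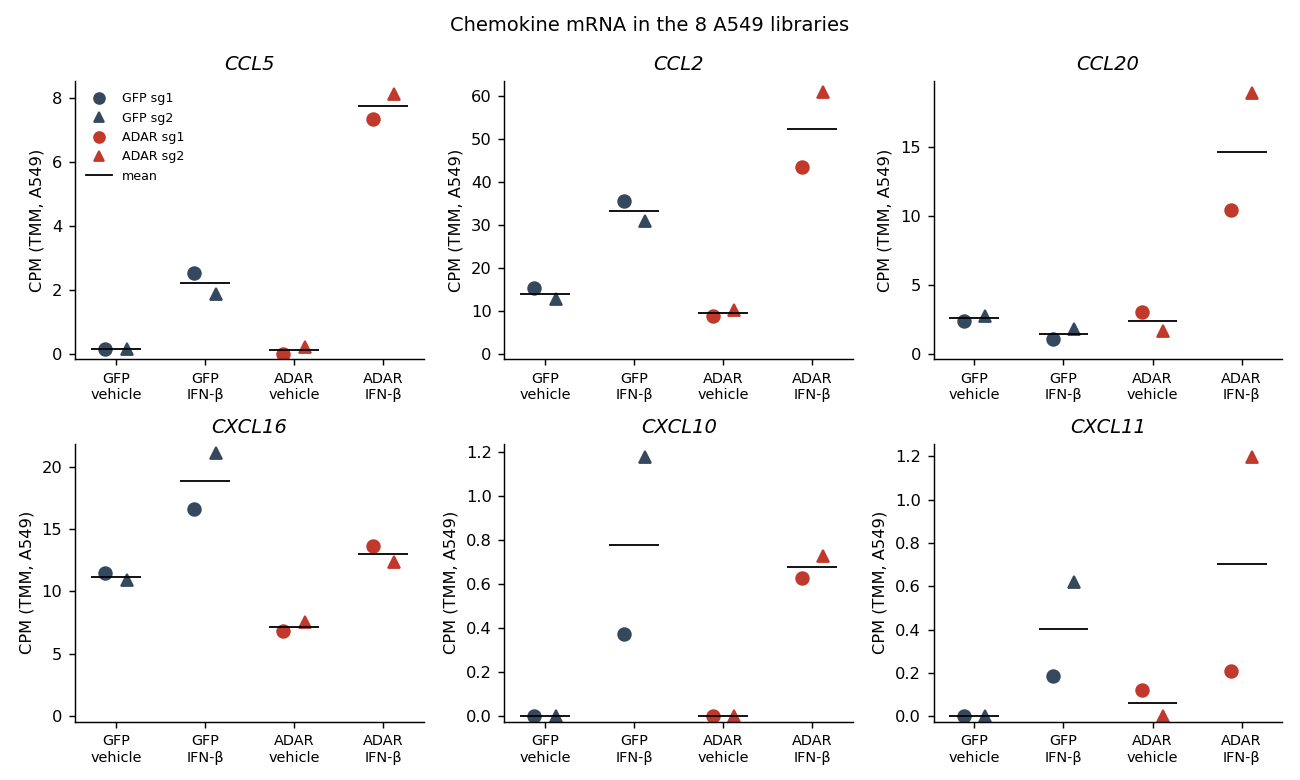
Levels in A549. Each panel plots 1 chemokine in the 8 A549 libraries, with the condition on the x axis and TMM-scaled CPM on a linear y axis that differs between panels. Circles are sg1, triangles sg2, and bars the mean of 2 libraries. *CCL20* stands between 1.03 and 3.05 CPM in 6 libraries and at 10.4 and 18.9 CPM in the 2 with *ADAR* KO and IFN-β.

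*ADAR* KO in IFN-β-treated A549 raised *CCL5* and *CCL2* above their levels with IFN-β alone, raised *CCL20*, which IFN-β alone had not, and lowered *CXCL16*. *CCL20* stood at 10.4 and 18.9 CPM (99 and 363 reads) with *ADAR* KO against 1.03 and 1.80 CPM (11 and 29 reads) in control cells. Both KO libraries lay far above both control libraries, and the log2 fold change was 3.33 (SE 0.34, adjusted p = 1.68e-08), a 10.1-fold difference. *CCL5* stood at 7.36 and 8.13 CPM against 2.53 and 1.86 CPM, a log2 fold change of 1.84 (SE 0.35, adjusted p = 0.000385), again with separate groups.

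*CCL2* stood at 43.5 and 60.8 CPM with *ADAR* KO against 35.5 and 30.7 CPM, a log2 fold change of 0.67 (SE 0.16, adjusted p = 0.00313). The rise rested on the ADAR sg2 library, since without it the log2 fold change was 0.40 (adjusted p = 0.295), and the call was also lost in a fit of all 20 libraries (0.62, adjusted p = 0.0558). *CXCL16* stood at 13.7 and 12.3 CPM against 16.6 and 21.1 CPM, a log2 fold change of −0.55 (SE 0.19, adjusted p = 0.0482). That call was lost with DESeq2 (adjusted p = 0.0873), with no read minimum (0.118), in a fit of all 20 libraries (0.0827), with a replicate block (0.0577) and without GFP sg2, ADAR sg1 or ADAR sg2 (0.380, 0.0801 and 0.348). *CXCL10* (6 and 14 reads with KO, 4 and 19 in control cells) and *CXCL11* (2 and 23 against 2 and 10) overlapped between the targets. At this depth no difference was detectable for either.

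Of the 4 genes tested, 3 were higher and 1 lower, where 17% of all genes tested passed, 10.8% higher and 6.19% lower. Their median log2 fold change was 1.25 against −0.01 over all genes. NF-κB subunits and early targets rose in 9 of 9 cases, led by *TNFAIP3* (3.07), *NFKBIZ* (1.88) and *RELB* (1.36). STAT and IRF factors rose in 2 of 9, *IRF1* (0.98) and *STAT2* (0.31). The other chemokine ligands rose in 5 of 5 cases, led by the neutrophil attractants *CXCL8* (4.69), *CXCL3* (1.81) and *CXCL1* (1.60). Of 9 cytokines that induce chemokines, 5 could be tested and rose, but the interferon genes among them met the read minimum only through the cells with KO and IFN-β, so that count was fixed by the minimum. *IFNB1* had 17 and 62 reads with KO and IFN-β and none in the other 6 A549 libraries, *IFNL3* had 15 and 64 reads there and none elsewhere in A549, and *IFNL1* had 24 and 88 reads there and 1 read elsewhere in A549. None of the 4 proteases passed, and none had an unadjusted p under 0.05.

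Without IFN-β, *ADAR* KO moved none of the 4 chemokines past the threshold in edgeR, where 0.123% of all genes passed, 0.0324% higher and 0.0906% lower. *CXCL16* stood at 6.83 and 7.53 CPM with KO against 11.5 and 10.9 CPM (log2 fold change −0.63, SE 0.22, adjusted p = 0.934), and *CCL2* at 8.66 and 10.1 CPM against 15.2 and 12.7 CPM (−0.55, SE 0.20, adjusted p = 0.998). Both had non-overlapping groups and an unadjusted p under 0.05 (0.00844 and 0.0106), and they were the 2 of 4 that did. Of all 15449 genes tested, 642 had an unadjusted p under 0.05. The share of all genes with non-overlapping groups is not given here, so non-overlap alone does not set these 2 apart. DESeq2 also called none of the 4. *CCL5* (0 and 2 reads against 1 and 2) and *CCL20* (3.05 and 1.63 CPM against 2.38 and 2.72 CPM) overlapped. None of the 9 NF-κB genes passed (0 of 9 at an unadjusted p under 0.05) and none of the 9 STAT and IRF factors did (1 of 9).

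Whether the KO effect depended on IFN-β was tested as an interaction. It was positive and passed for *CCL20* (3.50 on the log2 scale, SE 0.54, adjusted p = 5.78e-05) and *CCL2* (1.22, SE 0.25, adjusted p = 0.00288), 2 of 4 genes where 5.05% of all genes passed, 4.07% higher and 0.977% lower. For *CCL2* the call was lost without ADAR sg2 with IFN-β (0.95, adjusted p = 0.0793) and in a fit of all 20 libraries (1.18, adjusted p = 0.0566). *CCL5* had an interaction of 2.08 with an SE of 1.38 (adjusted p = 0.446), with 0 to 2 reads in each vehicle library. *CXCL16* had an interaction of 0.08 (SE 0.30, adjusted p = 0.927), so that its KO effect was −0.63 without and −0.55 with IFN-β. Among NF-κB subunits and early targets the interaction passed in 8 of 9 cases and among STAT and IRF factors in 0 of 9 (1 of 9 at an unadjusted p under 0.05).

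Seen from the other side, IFN-β in *ADAR*-KO A549 raised all 4 genes tested, where 24.5% of all genes passed, 15.5% higher and 9.04% lower. The log2 fold changes were 6.01 for *CCL5* (SE 0.61), 2.69 for *CCL20* (SE 0.34), 2.48 for *CCL2* (SE 0.18) and 0.85 for *CXCL16* (SE 0.22). The *CCL5* value rests on 2 reads after vehicle, and pooled reads gave 71.0-fold with an exact 95% interval from 19.4 to 590. *CXCL10* went from no read to 6 and 14 reads, at least 4.09-fold higher. *CXCL11* went from 1 and 0 reads to 2 and 23 reads, a ratio of 15.7 with an exact 95% interval from 2.57 to 645. This comparison shares its treated libraries with the KO comparison under IFN-β and its vehicle libraries with the KO comparison without it. The leukocyte marker *ITGAM*, an integrin gene, also rose with KO under IFN-β (log2 fold change 0.98), and was the only 1 of 13 leukocyte markers with enough reads to be tested. The 13 summed to 10.4 and 13.8 CPM there and to 4.54 to 7.71 CPM in the other 6 A549 libraries. Of 5 epithelial markers tested, *CDH1* (−0.74), *KRT8* (−0.48) and *KRT18* (−0.44) fell with KO under IFN-β. The part of these markers in the chemokine results was not tested.

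**Figure D2:**
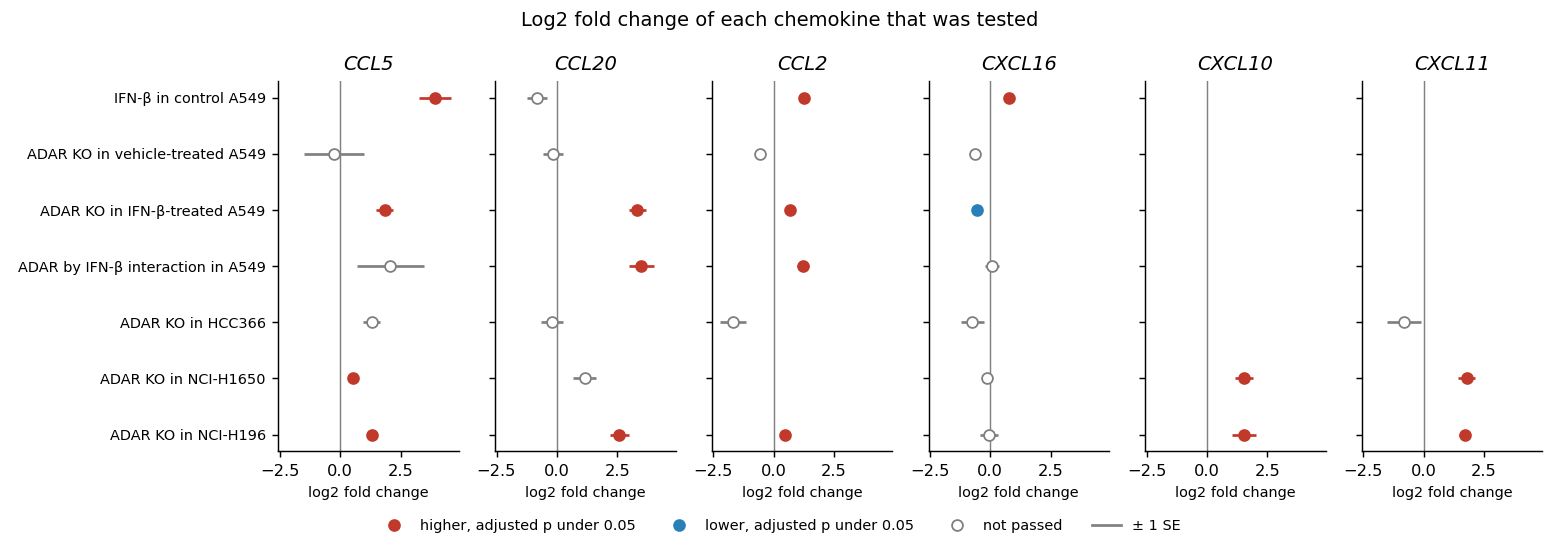
Fold changes of the chemokines that were tested. Each panel is 1 chemokine, the rows are comparisons, and the x axis is the log2 fold change (for the interaction row, a difference of log2 fold changes) with bars of 1 SE. Filled points passed an adjusted p of 0.05, red higher and blue lower, and empty rows had too few reads. *CCL20* is at −0.81 with IFN-β alone and at 3.33 for *ADAR* KO under IFN-β.

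In the ADAR1-dependent lines the control levels already differed widely from those of A549. On a scale common to all 20 libraries, *CCL5* averaged 369 ± 26.9 CPM (SD, n = 2 for this and the following means) in NCI-H1650 control cells, 189 ± 9.89 CPM in HCC366 and 20.8 ± 0.238 CPM in NCI-H196, against 0.163 ± 0.00435 CPM in vehicle-treated A549. Over the 10 conditions *CCL5* ran from NCI-H1650 with *ADAR* KO (545 CPM) and HCC366 with KO (454 CPM) down to A549 with KO and vehicle (0.126 CPM). Neighbours in that order overlapped at the top, among NCI-H1650 with KO, HCC366 with KO and NCI-H1650 control cells, and at the bottom, between the vehicle conditions of A549. Every other neighbouring pair was separate. The NCI-H196 GFP sg2 library held 2 *CCL5* reads, so the small SD of that condition says little.

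*CCL20* was highest in HCC366 (163 ± 34.2 CPM in control cells and 140 ± 86.4 CPM with KO, overlapping), next in A549 with KO and IFN-β (17.3 ± 7.18 CPM), and at or under 6.84 CPM elsewhere. *CCL2* was highest in A549 with KO and IFN-β (61.5 ± 14.7 CPM) and nearly absent from NCI-H1650, with 0 to 2 reads per library. *CXCL16* was highest in NCI-H1650 (29.2 ± 1.65 CPM in control cells and 27.2 ± 1.88 CPM with KO, overlapping) and lowest in NCI-H196 (2.18 ± 3.09 and 3.78 ± 0.765 CPM, overlapping). *CXCL11* was highest in NCI-H196 with KO (20.8 ± 0.311 CPM), separate from the next condition, HCC366 control cells (9.42 ± 5.23 CPM). *CXCL10* did not exceed 6.69 CPM on average in any condition, and its top conditions, NCI-H1650 with KO, NCI-H196 with KO and HCC366 control cells, overlapped. *CXCL9* had 4 reads in all 20 libraries together, and *CX3CL1* at most 8 reads in any.

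Per kilobase of exon, the 8 chemokines made up a different mixture in each line. In NCI-H1650, *CCL5* took 94.0% to 95.5% of the summed level (RPKM, reads scaled to depth and gene length) in all 4 libraries. In A549, *CCL2* took 50.3% to 67.4% in all 8, and *CCL5* went from at most 1.65% after vehicle to between 4.998% and 13.5% after IFN-β. HCC366 was mostly *CCL5* and *CCL20*: *CCL5* took 49.4% and 57.2% in control cells and 64.9% and 87.8% with KO. In NCI-H196, *CCL5*, *CCL2* and *CXCL11* together made up most of the sum, with *CXCL11* at 10.6% and 22.1% in control cells and 16.8% and 15.3% with KO. The 22.1% is 1 read of *CXCL11* in the shallow GFP sg2 library. That library also held 2 reads of *CCL5* and 1 of *CCL2*, so its shares say little.

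**Figure D3:**
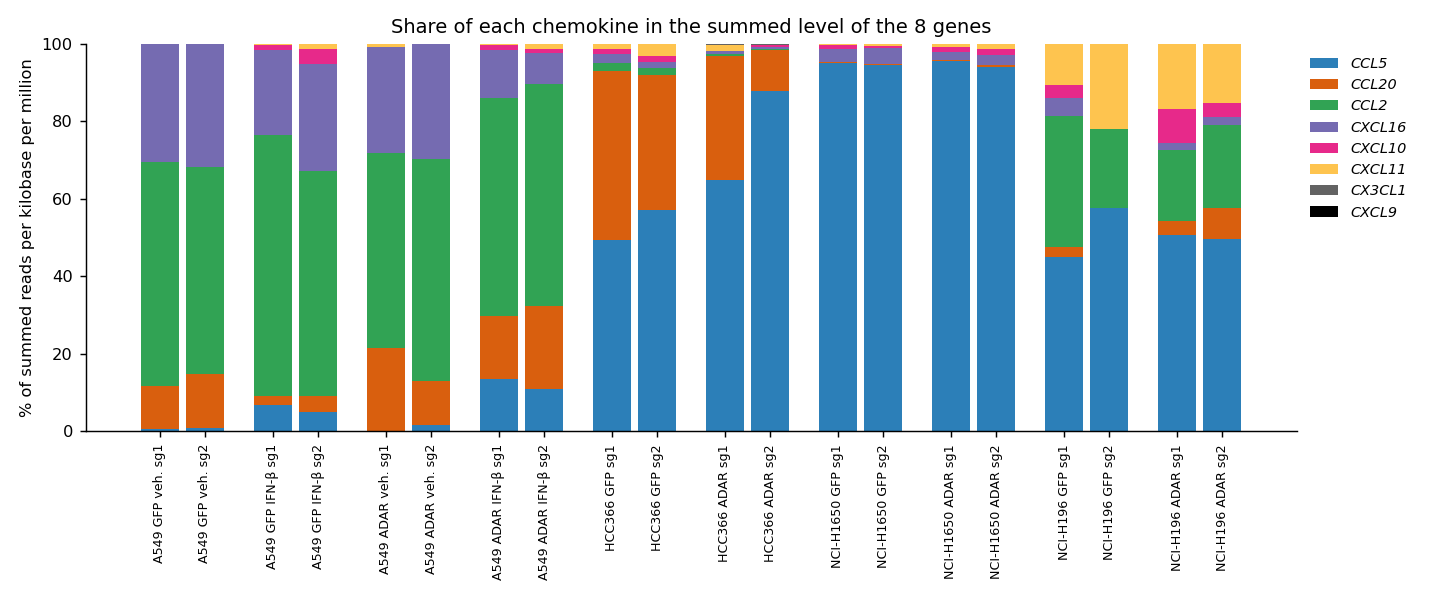
Make-up of the chemokine RNA. Each bar is 1 of the 20 libraries, split into the percentage of the summed RPKM that each of the 8 genes holds, on a linear axis that starts at 0. *CCL5* holds 94.0% to 95.5% in the NCI-H1650 libraries, and *CCL2* holds 50.3% to 67.4% in the A549 libraries. The NCI-H196 GFP sg2 bar rests on 2 reads of *CCL5*, 1 of *CCL2* and 1 of *CXCL11*.

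In NCI-H1650, *ADAR* KO raised the CXCR3 ligands *CXCL10* and *CXCL11* and the already abundant *CCL5*. *CXCL10* stood at 3.09 and 1.91 CPM (14 and 8 reads) in control cells and at 5.76 and 9.18 CPM (31 and 43 reads) with KO, a log2 fold change of 1.54 (SE 0.37, adjusted p = 0.00317). *CXCL11* stood at 2.21 and 2.87 CPM (10 and 12 reads) and at 7.06 and 10.7 CPM (38 and 50 reads), a log2 fold change of 1.79 (SE 0.35, adjusted p = 0.000229). The KO libraries lay above the control libraries for both. *CCL5* went from 434 and 399 CPM to 611 and 608 CPM, a log2 fold change of 0.55 (SE 0.10, adjusted p = 7.46e-05), with libraries of a target closer to each other than to those of the other target.

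*CCL20* stood at 1.76 and 1.43 CPM in control cells and at 2.60 and 4.70 CPM with KO. Its groups did not overlap, but the log2 fold change of 1.15 (SE 0.47, adjusted p = 0.121) did not pass. *CXCL16* was at 31.3 and 34.6 CPM against 29.0 and 31.8 CPM (log2 fold change −0.12, SE 0.15, adjusted p = 0.722), with overlapping groups. So 3 of the 5 genes tested were higher and none lower, where 8.6% of all 14530 genes passed, 6.18% higher and 2.42% lower, and the medians were 1.15 for the 5 and 0.01 for all genes. *CXCL10* lost its call without GFP sg2 (adjusted p = 0.0974) or ADAR sg2 (0.125), DESeq2 gave an adjusted p for 2 of the 5 and called *CCL5*, and in a fit of all 20 libraries none of the 5 passed.

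In NCI-H196, 5 of the 6 chemokines tested were higher with *ADAR* KO, where 17.8% of all 14094 genes passed, 10.3% higher and 7.5% lower. *CCL20* stood at 1.67 and 0 CPM (15 and 0 reads) in control cells and at 5.08 and 10.9 CPM (5 and 87 reads) with KO, a log2 fold change of 2.60 (SE 0.39, adjusted p = 1.73e-09). *CXCL11* stood at 7.25 and 14.7 CPM (65 and 1 reads) and at 26.4 and 23.3 CPM (26 and 186 reads), a log2 fold change of 1.70 (SE 0.24, adjusted p = 6.01e-11). The KO libraries lay above the control libraries for both, though the second control value of each rests on at most 1 read. With 1 read worth 14.7 CPM in that library, its 0 reads of *CCL20* cannot be placed below the KO values.

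*CXCL10* stood at 1.45 and 0 CPM (13 and 0 reads) and at 9.14 and 3.51 CPM (9 and 28 reads) with KO, a log2 fold change of 1.53 (SE 0.50, adjusted p = 0.0171). *CCL5* stood at 23.6 and 29.3 CPM (212 and 2 reads) and at 60.9 and 58.1 CPM (60 and 463 reads), a log2 fold change of 1.31 (SE 0.16, adjusted p = 2.06e-13). *CCL2* stood at 25.2 and 14.7 CPM (226 and 1 reads) and at 31.5 and 35.5 CPM (31 and 283 reads), a log2 fold change of 0.47 (SE 0.17, adjusted p = 0.0390). For all 3 the KO libraries lay above the control libraries, but the GFP sg2 values rest on 0, 2 and 1 reads. With 1 read worth 14.7 CPM in GFP sg2, its 0 reads of *CXCL10* cannot be placed below the KO values. *CXCL16* overlapped (5.02 and 0 CPM against 4.06 and 4.89 CPM, log2 fold change −0.05, SE 0.36, adjusted p = 0.947), and the median of the 6 was 1.42 against 0.00 over all genes.

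These calls rest on GFP sg1, the only deep control library of NCI-H196. Without the shallow GFP sg2 library the same 5 genes passed, at log2 fold changes of 2.58 for *CCL20*, 1.70 for *CXCL11*, 1.53 for *CXCL10*, 1.30 for *CCL5* and 0.46 for *CCL2*, and without GFP sg1 none of the 4 that could still be tested did. Without ADAR sg1, *CXCL10* (adjusted p = 0.224) and *CCL2* (0.0860) lost their calls, and without ADAR sg2 only *CXCL11* (1.85) and *CCL5* (1.36) passed. In a fit of all 20 libraries only *CCL5* (1.29, adjusted p = 0.0117) and *CCL20* (2.55, adjusted p = 0.0404) passed, and *CCL2* was also lost with no read minimum (adjusted p = 0.124). With a replicate block by sgRNA number only *CXCL11* (log2 fold change 1.82, adjusted p = 0.0131) and *CCL5* (1.34, adjusted p = 0.00872) passed. DESeq2 gave no adjusted p for any of the 6. Its unadjusted p-values for them ran from 0.0637 for *CCL5* to 0.959 for *CXCL16*, so none was under 0.05.

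**Figure D4:**
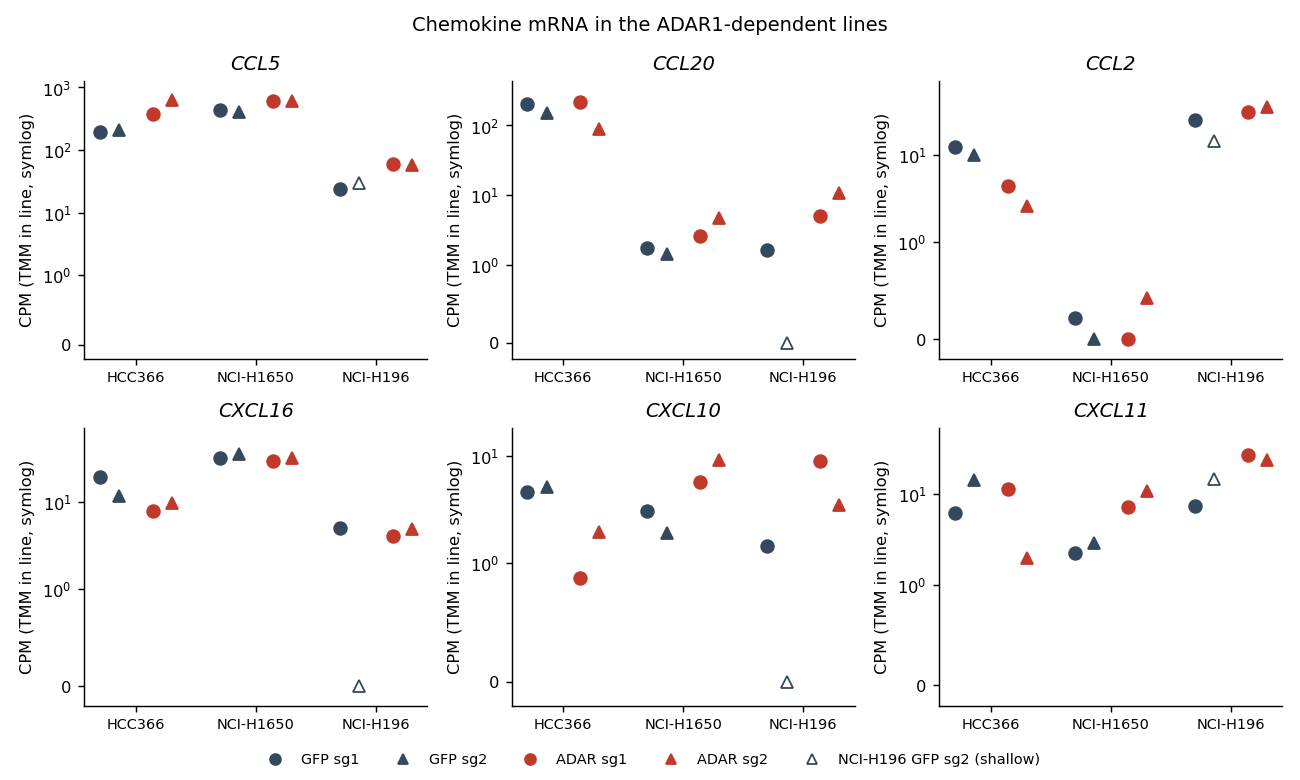
Levels in the ADAR1-dependent lines. Each panel plots 1 chemokine in the 12 libraries of the 3 lines, with TMM-scaled CPM within the line on a y axis that is linear up to 1 and logarithmic above. Dark points are *GFP* and red points *ADAR* sgRNAs, circles sg1 and triangles sg2, and the open triangle is the shallow NCI-H196 GFP sg2 library. *CCL5* with KO lies above control in all 3 lines, and *CCL2* lies below it in HCC366 (4.37 and 2.59 against 12.4 and 10.0 CPM).

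In HCC366, none of the 5 chemokines tested passed in edgeR, where 1.25% of all 11135 genes did (1.2% higher and 0.0449% lower). *CCL5* stood at 198 and 210 CPM (255 and 733 reads) in control cells and at 375 and 634 CPM (429 and 981 reads) with KO. Both KO libraries lay above both control libraries, and the log2 fold change was 1.31 (SE 0.35, adjusted p = 0.119). *CCL2* went the other way, from 12.4 and 10.0 CPM (16 and 35 reads) to 4.37 and 2.59 CPM (5 and 4 reads), a log2 fold change of −1.68 (SE 0.53, adjusted p = 0.168) with non-overlapping groups. These 2 of the 5 had an unadjusted p under 0.05, as did 2014 of all 11135 genes tested.

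*CXCL16* stood at 19.4 and 11.5 CPM against 7.87 and 9.70 CPM with KO (log2 fold change −0.74, SE 0.47, adjusted p = 0.424), lower but not past the threshold. *CXCL11* (6.20 and 14.04 CPM against 11.4 and 1.94 CPM, log2 fold change −0.80, SE 0.72, adjusted p = 0.567) and *CCL20* (203 and 149 CPM against 216 and 89.9 CPM, −0.20, SE 0.44, adjusted p = 0.825) overlapped, with ADAR sg2 the lowest library for both. *CXCL10* had 6 and 18 reads in control cells and 1 and 3 with KO (4.65 and 5.16 against 0.875 and 1.94 CPM), below the read minimum. With no minimum its log2 fold change was −1.79 (SE 0.80, adjusted p = 0.289). *CX3CL1* had 0 and 3 reads in control cells and 7 and 8 with KO, a ratio of 8.89 with an exact 95% interval from 2.51 to 47.9. It passed in the fit with no minimum (adjusted p = 0.0303) and did not with DESeq2 (0.374).

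The HCC366 values depend on the ADAR sg2 library described above. Without it, when 1058 of all genes passed against 139 with all 4 libraries, *CCL5* passed (log2 fold change 0.90, adjusted p = 0.000202), *CXCL11* was at −0.0033 (adjusted p = 0.998) and *CCL20* at 0.34 (adjusted p = 0.360). Without ADAR sg1 in its place, *CCL5* (1.62), *CCL2* (−2.05), *CXCL11* (−2.55) and *CCL20* (−0.96) all passed, but so did 6408 of all genes, so these calls do not set the chemokines apart. DESeq2 called *CCL5* too (adjusted p = 0.0348). A correction of each library for the GC content and length of its genes called it as well (log2 fold change 1.03, adjusted p = 0.0211). The correction put *CCL20* at 0.54 (adjusted p = 0.153). In edgeR *CCL5* did not pass with DESeq2's size factors or with a replicate block by sgRNA number. Nor did it pass without GFP sg1 or without GFP sg2.

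The companion genes gave the following counts. NF-κB subunits and early targets rose with *ADAR* KO in 7 of 9 cases in NCI-H1650 and 8 of 9 in NCI-H196, and 1 of 9, *TNFAIP3* (1.99), did in HCC366. HCC366, where 1.25% of all genes passed, had 5 of 9 at an unadjusted p under 0.05, as did 2014 of all 11135 genes tested there. The median log2 fold change of the 9 genes was 1.03 there, 0.81 for NCI-H1650 and 1.22 for NCI-H196. None of the 9 passed in the tests of differences between these lines. *TNFAIP3* led all 3 lines, with 1.73 in NCI-H1650 and 1.75 in NCI-H196. STAT and IRF factors rose in 1 of 9 cases in NCI-H1650 (*IRF1*, 0.84) and 4 of 8 in NCI-H196, led by *IRF7* (1.07), *IRF1* (1.00) and *STAT2* (0.56). In HCC366 0 of 7 passed, and 2 of 7 had an unadjusted p under 0.05. Of the 9 inducing cytokines, 4 could be tested and rose in NCI-H1650, led by *IFNB1* (2.85), 4 could be tested and rose in NCI-H196, led by *IFNL1* (2.81), and 1 of 3 tested, *IL1B* (3.02), rose in HCC366, with the same limit from the read minimum. The other chemokine ligands rose in 5 of 6, 4 of 5 and 3 of 5 cases in NCI-H1650, NCI-H196 and HCC366, with leading genes *CXCL3* (2.81), *CXCL1* (3.53) and *CXCL2* (3.03). Of the receptors, *CCR1* (0.62) rose in NCI-H196, and of the proteases, *ADAM10*, which sheds CXCL16 and CX3CL1, fell there (−0.29, adjusted p = 0.0299). *ADAM10* was also lower, without passing, in NCI-H1650 (−0.29, adjusted p = 0.0710) and HCC366 (−1.52, adjusted p = 0.138). The edgeR fit of all 20 libraries put its HCC366 effect below that of NCI-H1650 (difference −1.32, adjusted p = 0.0228). It was below the NCI-H196 effect too (difference −1.31, adjusted p = 0.0327).

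**Figure D5:**
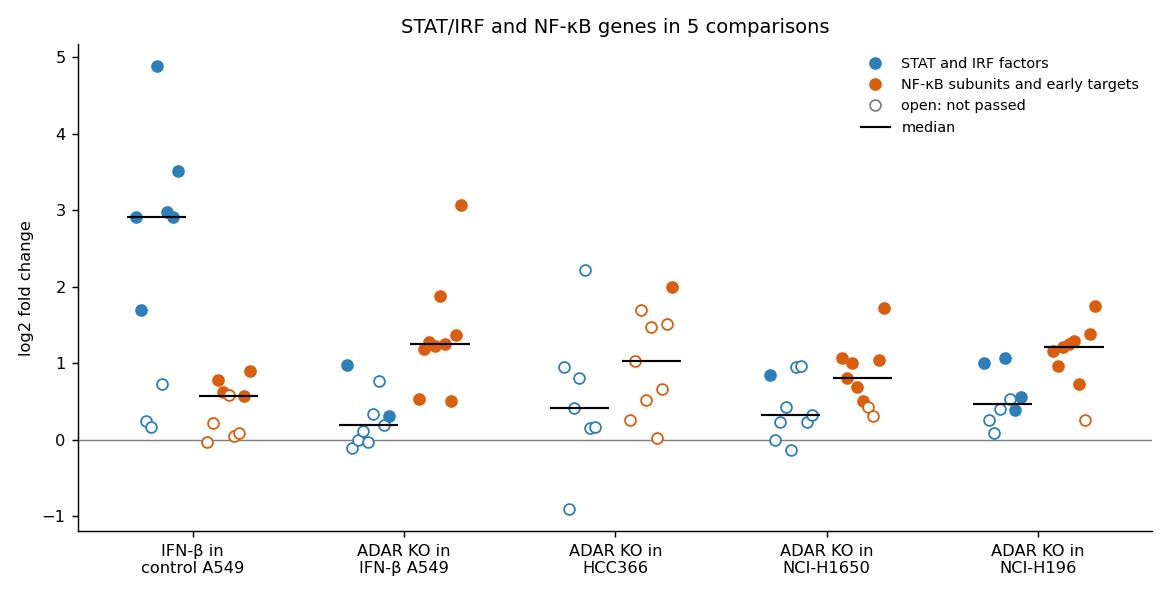
STAT and IRF factors, NF-κB subunits and NF-κB early targets. Points are genes of 2 lists, STAT and IRF factors (blue) and NF-κB subunits and early targets (orange), in 5 comparisons on the x axis, with the log2 fold change on the y axis. Filled points passed an adjusted p of 0.05 and bars are medians over the genes tested. With IFN-β alone 6 of 9 blue and 4 of 9 orange points are filled, and for *ADAR* KO under IFN-β 2 of 9 blue and 9 of 9 orange points are.

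Among leukocyte markers *ITGAM* rose with *ADAR* KO in all 3 lines, with log2 fold changes of 4.31 for NCI-H196, 2.67 for HCC366 and 1.77 for NCI-H1650. The summed markers were 9.29 and 14.2 CPM in HCC366 control cells and 37.5 and 49.6 CPM with KO, 3.55 and 6.69 against 5.97 and 5.55 CPM in NCI-H1650, and 5.24 and 0 against 15.4 and 9.74 CPM in NCI-H196. These sums are on the scale common to all 20 libraries. On the scale within the line, *ITGAM* stood at 33.2 and 54.3 CPM in HCC366 with KO, so these values cannot be read as parts of the sums. *CD3D*, *CD3E*, *LYZ* and *FCGR3A* stayed at 0. *CD14*, the other leukocyte marker with enough reads to be tested, and in NCI-H196 only, was higher with KO without passing. Its log2 fold change there was 0.76 (SE 0.34, adjusted p = 0.105). The part of *ITGAM*-expressing cells or of *ITGAM* in the chemokine results was not tested.

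Differences between the lines' KO effects were tested in a fit of all 20 libraries. The effect in HCC366 was below that in NCI-H196 for *CCL20* (difference of log2 fold changes −2.78, SE 0.67, adjusted p = 0.0208) and *CCL2* (−2.17, SE 0.59, adjusted p = 0.0399), 2 of 7 genes where 2.41% of all 19523 genes passed, 1.14% higher and 1.27% lower. It was below that in NCI-H1650 for *CXCL10* (−3.35, SE 0.91, adjusted p = 0.0448), 1 of 7 where 2.21% passed, 1.23% higher and 0.978% lower. *CXCL11* narrowly missed in both (−2.73, adjusted p = 0.0522, and −2.61, adjusted p = 0.0534). Between NCI-H1650 and NCI-H196 none of 7 passed in edgeR or DESeq2, where 0.00512% of all genes did, and 1 of 7, *CCL5* (−0.72, SE 0.32, adjusted p = 1.00), had an unadjusted p under 0.05. The *CCL20* difference was lost without NCI-H196 GFP sg1 (adjusted p = 1.00) or NCI-H196 ADAR sg2 (0.653), the *CCL2* difference without any library of its lines but HCC366 ADAR sg1 (0.0502 to 0.501), and the *CXCL10* difference without any but HCC366 ADAR sg1 and NCI-H1650 ADAR sg1 (0.0586 to 0.352). DESeq2 gave adjusted p-values of 0.0623 for *CCL20* and 0.0693 for *CCL2* and none for *CXCL10*.

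Across the 20 libraries, the genes whose log2 CPM followed each chemokine most closely were *PPP1R13L*, *CASP4* and *PLAUR* for *CCL5* (Pearson r of 0.97, 0.97 and 0.96 among 19523 genes), *NECTIN3*, *METTL17* and *ITGB3* for *CCL2* (0.96, 0.95 and 0.94), *XPO6*, *KANSL3* and *THSD4* for *CCL20* (0.95, 0.94 and 0.93) and *PIK3C2B*, *SLC2A3* and *ST3GAL4* for *CXCL16* (0.97, 0.95 and 0.95). For *CXCL10* they were *B3GNT5*, *BISPR* and *HDX* (0.90, 0.89 and 0.88) and for *CXCL11* *WDFY3*, *YIPF1* and *HBP1* (0.95, 0.94 and 0.94). For *CX3CL1* they were 3 identifiers without a symbol. Among the chemokines themselves r was 0.79 for *CXCL10* with *CCL5*, 0.75 for *CXCL11* with *CCL5*, 0.72 for *CXCL10* with *CXCL11* and −0.65 for *CCL2* with *CCL5*. The libraries come from 4 lines that differ in level, so these values describe the lines as much as the conditions.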

How the data were processed

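RNA was extracted with RNeasy kits, depleted of rRNA, made into directional libraries and sequenced as paired ends. The authors aligned reads with STAR to hg19 and deposited HTSeq read counts per Ensembl gene. Versions, annotation release and strand setting are not given in the sources used here. The members, gene lists and tests were chosen with earlier results of these data known.

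From the deposited counts, 55727 of 58233 identifiers were matched to symbols, holding 97.4% of reads, and gene models were taken from GENCODE on GRCh37. The test was edgeR 4.0.16's two-sided quasi-likelihood test in R 4.3.3, with TMM scaling, the filterByExpr minimum and Benjamini-Hochberg adjustment over all genes tested (threshold 0.05, prior count 0.125), fitted per line, with the 8 A549 libraries in 1 fit and the differences between lines in a fit of all 20. SE is the absolute log2 fold change divided by the square root of F. The first comparison of each line (for A549, IFN-β in control cells) was run on simulated data beforehand, with edgeR and DESeq2. The other A549 comparisons, the interaction among them, and the fit of all 20 libraries were not. DESeq2 1.42.0, other size factors, no minimum, a replicate block, a fit of all 20 libraries and leaving out each library were the alternatives, and offsets for GC content and length and a crossed block were added after the data were seen. Named genes were all 8 chemokines, up to 3 called genes of each list with the largest change, *ADAR*, and the 3 genes most correlated with each chemokine (prior count 2). Library totals ranged from 62679 to 19520189 reads. Intervals and floors of 3 reads cover counting error only.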

Additional observations from a re-analysis of the deposited data

Results flagged for a closer look

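For 5 results the data showed an effect that differed between groups by a test of the difference itself. In A549 the *ADAR* KO effect depended on IFN-β for *CCL20* (difference of log2 fold changes 3.50, SE 0.54, adjusted p = 5.78e-05, edgeR), which passed in every alternative run, and for *CCL2* (1.22, SE 0.25, adjusted p = 0.00288), which did not pass without ADAR sg2 with IFN-β or in a fit of all 20 libraries.

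Between lines, the *ADAR* KO effect in HCC366 was below that in NCI-H196 for *CCL20* (−2.78, SE 0.67, adjusted p = 0.0208) and *CCL2* (−2.17, SE 0.59, adjusted p = 0.0399), and below that in NCI-H1650 for *CXCL10* (−3.35, SE 0.91, adjusted p = 0.0448). Each of these 3 was lost without at least 1 library of its lines, and DESeq2 called none of them (it gave no adjusted p for *CXCL10*).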

How the results depend on the processing

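Counts of chemokines called that moved by more than 1.5 times come first, and where no cause is named the cause was not tested. With no read minimum, which admits more genes, 5 passed against 3 for IFN-β in control A549, 2 against 0 in HCC366, and 2 against 1 for HCC366 minus NCI-H1650. In a fit of all 20 libraries, 2 against 4 passed for KO in IFN-β-treated A549, 1 against 2 for the interaction, 3 against 0 in HCC366, 0 against 3 in NCI-H1650 and 2 against 5 in NCI-H196. With DESeq2, 1 against 0 passed in HCC366, 1 against 3 in NCI-H1650 (which had no adjusted p for 3 of the 5), 0 against 1 for HCC366 minus NCI-H1650 and 0 against 2 for HCC366 minus NCI-H196, and in NCI-H196 no chemokine had an adjusted p. DESeq2's size factors in edgeR gave 0 against 1 for HCC366 minus NCI-H1650. In HCC366, offsets for GC content and length and a crossed replicate block, both chosen after seeing the data, each gave 1 against 0. Smaller moves were 3 against 4 for KO in IFN-β-treated A549 with no minimum, with DESeq2 and with the replicate block, 4 against 5 in NCI-H196 and 3 against 2 for HCC366 minus NCI-H196 with no minimum, 6 against 4 for IFN-β in *ADAR*-KO A549 with no minimum and in the fit of all 20, and 4 against 3 for IFN-β in control A549 in the fit of all 20.

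The sgRNA numbers did not pair the libraries: correlations of same-numbered deviations were −0.253 in HCC366, −0.0209 in NCI-H196, −0.0163 in NCI-H1650 and −0.0784 to 0.0368 in A549. A replicate block gave 2 against 5 called chemokines in NCI-H196 and 2 against 1 for HCC366 minus NCI-H1650, and turned the *CCL5* difference between HCC366 and NCI-H196 to 0.039.

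Leaving out each library in turn, the counts ranged from 2 to 4 for IFN-β in control A549, 2 to 4 for KO in IFN-β-treated A549, 4 to 6 for IFN-β in *ADAR*-KO A549, 1 to 2 for the interaction, 0 to 4 in HCC366, 2 to 3 in NCI-H1650, 0 to 5 in NCI-H196, 0 to 4 for HCC366 minus NCI-H1650 and 0 to 4 for HCC366 minus NCI-H196. They stayed at 0 for KO in vehicle-treated A549 and for NCI-H1650 minus NCI-H196.

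Signs that turned belonged to values that had not passed. *CCL5* for HCC366 minus NCI-H196 was 0.053 with DESeq2's size factors and 0.053 with DESeq2, *CX3CL1* for NCI-H1650 minus NCI-H196 was 1.60 with DESeq2, and *CCL20* in HCC366 was 0.54 with the offsets. Without single libraries, the log2 values ranged from −0.073 to 0.27 for *CXCL16* in the interaction, −3.81 to 0.59 for *CCL5* and −0.66 to 0.24 for *CCL20* with KO after vehicle, and −0.96 to 0.34 for *CCL20* and −2.55 to 0.049 for *CXCL11* in HCC366. They ranged from −5.09 to 0.91 for *CCL2* in HCC366 minus NCI-H1650, and from −0.42 to 0.22 for *CCL5* and −0.019 to 5.44 for *CX3CL1* in HCC366 minus NCI-H196. For NCI-H1650 minus NCI-H196 they ranged from −3.08 to 2.93 for *CCL2*, −2.80 to 0.37 for *CX3CL1*, −6.10 to 0.31 for *CXCL10*, −0.17 to 0.82 for *CXCL11* and −7.80 to 0.33 for *CXCL16*.

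Counts over all genes moved by more than 1.5 times as well. HCC366 had 139 calls, against 298 with DESeq2, 903 with no minimum, 300 with the block, 960 with the crossed block, 966 with the offsets and 3701 in the fit of all 20. NCI-H1650 had 1250, against 412 with DESeq2 and 159 in the fit of all 20, and NCI-H196 had 2513, against 11 with DESeq2, 1552 with no minimum, 115 with the block and 98 in the fit of all 20. KO after vehicle had 19, against 8, 30 and 5 with DESeq2, no minimum and all 20. In the fit of all 20, IFN-β in control A549 went from 880 to 531, KO under IFN-β from 2622 to 1087, IFN-β in *ADAR*-KO A549 from 3788 to 2067 and the interaction from 780 to 164. NCI-H1650 minus NCI-H196 had 1, against 2 with DESeq2 and 4 with no minimum. Without single libraries the counts over all genes ranged from 9 to 6408 in HCC366, 41 to 3041 in NCI-H196, 542 to 1110 in NCI-H1650, 517 to 1245 for IFN-β in control A549, 689 to 3581 for KO under IFN-β, 1774 to 3496 for IFN-β in *ADAR*-KO A549, 253 to 1663 for the interaction, 3 to 17 for KO after vehicle, 37 to 4288 for HCC366 minus NCI-H1650, 6 to 3688 for HCC366 minus NCI-H196 and 0 to 2 for NCI-H1650 minus NCI-H196, so the share of all genes that each chemokine count is set against moved with them. Depth limits *CXCL9*, *CX3CL1* and, in A549, *CXCL10* and *CXCL11* to statements on reads.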
